A study of Mus musculus with 5 samples.

Results

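The vascular endothelial growth factor (VEGF) genes on the array were followed here through 7 members: the ligands Vegfa, Vegfb, Vegfc and Pgf, the receptors Flt1 and Kdr, and Vhl. They were chosen by gene symbol, each had 1 probe, and together they are 7 of the 223 probes of the array. Gene expression was measured in the soleus, a slow postural calf muscle, of 5 C57Bl/6 mice. Their sample titles read HUR wt R7 followed by a mouse number, with 7 days of reloading according to the series title. Reloading follows a period of unloading, which all 5 mice thus share and whose length the sample titles do not give. The mice are numbered 1, 3, 4, 5 and 6. Each array received 3 microgram of total RNA from frozen muscle sections. The labels used here give this 1 group, with no age and no group of unloaded or untreated muscle, so the comparisons are between mice and not between conditions. The 5 samples carry separate mouse numbers, but how the animals were kept or sampled is not stated.

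VEGF-A is the main growth factor of capillary endothelium. It acts mostly through the tyrosine kinase receptor KDR (VEGFR2), while FLT1 (VEGFR1) binds VEGF-A tightly, signals weakly and also acts as a decoy. VEGF-B and placental growth factor (Pgf) bind FLT1 and not KDR, and VEGF-C and VEGF-D act mainly on the lymphatic receptor FLT4. Vhl encodes the von Hippel-Lindau protein, which marks hypoxia-inducible factors for degradation when oxygen is present, so that Vegfa and other hypoxia targets stay low. In skeletal muscle, fibres are a main source of VEGF-A, and endothelial cells carry the receptors.

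Of the 7 members, 4 read above 0 on every array: Vegfa, Vegfb, Flt1 and Kdr. Vegfc was above 0 in 4 of the 5 mice, and Pgf and Vhl were below 0 in all 5. Among these 4, Vegfa and Kdr held a nearly fixed ratio to each other in every mouse, Vegfb was highest in mouse 1, and Flt1 was lowest in mouse 1, where its value was within the scatter around 0. The promoters of Vegfa, Kdr and Flt1 are shown because these genes make up that contrast. All 7 members matched an entry of the RefSeq promoter set (GRCm38.p6). The 250 bases before the annotated start are printed 5′ to 3′ on the gene's own strand (minus for all 3), and for Vegfa the more upstream of its 2 starts was taken. Capitals mark matches on either strand to 5 motifs, and a match on the other strand appears as its reverse complement. The motifs were TATAAA, the TATA box, then GGGCGG, the GC box of Sp1-type factors, then TGACGTCA, a cyclic AMP response element, and lastly ACGTG together with its variant GCGTG, the core that hypoxia-inducible factors bind. No marked match in the printed windows overlapped another.
Vegfa, chr17:46032378-46032627: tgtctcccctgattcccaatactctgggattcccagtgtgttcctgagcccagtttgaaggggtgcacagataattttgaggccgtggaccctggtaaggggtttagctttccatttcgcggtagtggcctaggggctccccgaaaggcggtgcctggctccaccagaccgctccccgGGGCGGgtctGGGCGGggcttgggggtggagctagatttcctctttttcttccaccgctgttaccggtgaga
Kdr, chr5:75978456-75978705: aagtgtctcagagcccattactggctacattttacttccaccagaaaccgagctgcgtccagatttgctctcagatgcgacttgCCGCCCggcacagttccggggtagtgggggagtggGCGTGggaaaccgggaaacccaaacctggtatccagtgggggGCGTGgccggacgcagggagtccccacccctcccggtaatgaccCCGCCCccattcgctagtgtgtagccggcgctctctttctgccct
Flt1, chr5:147726012-147726261: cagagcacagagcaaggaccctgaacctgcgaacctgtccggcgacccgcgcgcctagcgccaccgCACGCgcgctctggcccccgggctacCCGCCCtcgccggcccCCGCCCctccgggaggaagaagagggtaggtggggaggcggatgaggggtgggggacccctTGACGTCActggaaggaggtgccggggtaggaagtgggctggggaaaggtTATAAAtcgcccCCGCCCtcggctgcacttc

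The Flt1 window held a TATAAA that begins 31 bases before the start, a motif found in 12.4% of the 32851 promoter windows of the same length. It also held TGACGTCA, found in 1.55% of windows. Neither motif was in the Kdr or the printed Vegfa window. GGGCGG occurred 2 times in Vegfa, 2 times in Kdr and 3 times in Flt1, and was in 32.7% of all windows. GCGTG, in 28.2% of windows, occurred 2 times in Kdr and 1 time in Flt1, whereas ACGTG, in 16.6%, was in none of the 3 printed windows. The window of the other Vegfa start, not printed here, held 1 ACGTG and 1 GCGTG. It lies downstream of the printed start and can hold transcribed sequence, so its matches need not be promoter elements. These are matches of letters, chosen with the sequences in view, and do not show that a factor binds. Expression alone was measured, so nothing here ties a motif to a signal.

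Signals are given as deposited, in arbitrary units. Values slightly below 0 occur on every array, and how the background was removed is not given in the sources used here. The most negative probe lay between -0.0168 (mouse 1) and -0.0041 (mouse 4). The size of that value on the same array serves as a stricter limit for a signal. Summed signal was 70.8 to 137, highest in mice 1 and 6, so a gene with the same share of the signal appears brighter in these mice. The array of mouse 1 was looked at because several results below rest on it. The shares that follow were counted for mouse 1 and not for the other mice, so they do not set it apart. After quantile normalisation, 35.6% of 146 tested probes were highest and 28.1% lowest in mouse 1. As deposited these were 38.8% and 17.7% of 147 probes, and with arrays scaled to their total 21.1% and 41.5%, so the lean towards high values turned with the scaling. The members' results that rest on mouse 1 are also given without it. Muscle fibre markers were above 0 in every mouse for all 6 on the array, as were all 7 of the endothelial markers on the array (Pecam1, Cdh5, Tek, Cd34, Nos3, Kdr and Flt1). The 6 fibre markers and 4 of the 7 endothelial markers passed the stricter limit in every mouse. The summed deposited signal of the endothelial markers ran from 0.373 to 0.879. Above 0 in every mouse were also the pericyte marker Pdgfrb, the fibroblast markers Pdgfra and Fn1, and Fabp4 from the fat, nerve and blood list. Which cells gave the Fabp4 signal was not tested. Of the immune marker list only the cytokines Il1b and Il6 were on the array. Both were below 0 throughout, which does not show that immune cells were absent. The satellite cell marker Myf5 was also below 0 in every mouse, while Myod1 was above 0 in 4 mice.

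Among the ligands, Vegfa read 0.0371, 0.0238, 0.0292, 0.0280 and 0.0469 in mice 1, 3, 4, 5 and 6. Each value exceeded the stricter limit of its array, by 2.21 times in mouse 1 up to 7.12 times in mouse 4. The values lay within 1.97 times of each other, with the 2 brightest arrays, 1 and 6, on top. Vegfb, which binds FLT1 and is abundant in heart and oxidative muscle, read 0.145, 0.0455, 0.0603, 0.0634 and 0.0826 in the same order of mice. Mouse 1 was again bright, here 3.19 times the lowest mouse, and every value was at least 6.16 times the stricter limit.

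Vegfc, the lymphatic ligand, read 0.0020, 0.0011, 0.0102, -0.0012 and 0.010 in mice 1, 3, 4, 5 and 6. It passed the stricter limit in mouse 4 alone, by 2.49 times, since the value of mouse 6 lay under the limit of 0.0109 on that array. Pgf read -0.0145, -0.0046, -0.0001, -0.0069 and -0.0065. It was among the 19 lowest of 223 probes on every array, and the 4th lowest in mouse 1. Such values say only that Pgf RNA gave no signal over the background here, not that there was none.

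Vhl read -0.0128, -0.0055, -0.0012, -0.0087 and -0.0086, the 10th, 3rd, 12th, 4th and 6th lowest of the 223 probes on the arrays of mice 1, 3, 4, 5 and 6. It stood at the floor of every array, so no level and no difference between mice can be given for it.

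Of the receptors, Kdr read 0.0555, 0.0363, 0.0448, 0.0458 and 0.0835 in mice 1, 3, 4, 5 and 6. All 5 values were at least 3.30 times the stricter limit, and the highest was 2.30 times the lowest. Flt1 read 0.0030, 0.0359, 0.0417, 0.0189 and 0.0498. The other mice exceeded the stricter limit by 1.83 to 10.2 times, whereas mouse 1 reached only 0.179 times that limit and ranked 63rd from the lowest of 223 probes. In mouse 1 Flt1 was thus not distinguishable from the scatter around 0, while Kdr on the same array ranked 150th.

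Detection of the members can be read against the array as a whole. Above 0 on all arrays were 4 of 7 members and 65.9% of all 223 probes. With the stricter limit these were 3 of 7 members (Vegfa, Vegfb and Kdr) and 45.3% of probes. Above 0 on some arrays were 1 of 7 members (Vegfc) and 26.5% of probes, and at or below 0 on every array were 2 of 7 members and 7.62% of probes.

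**Figure D1:**
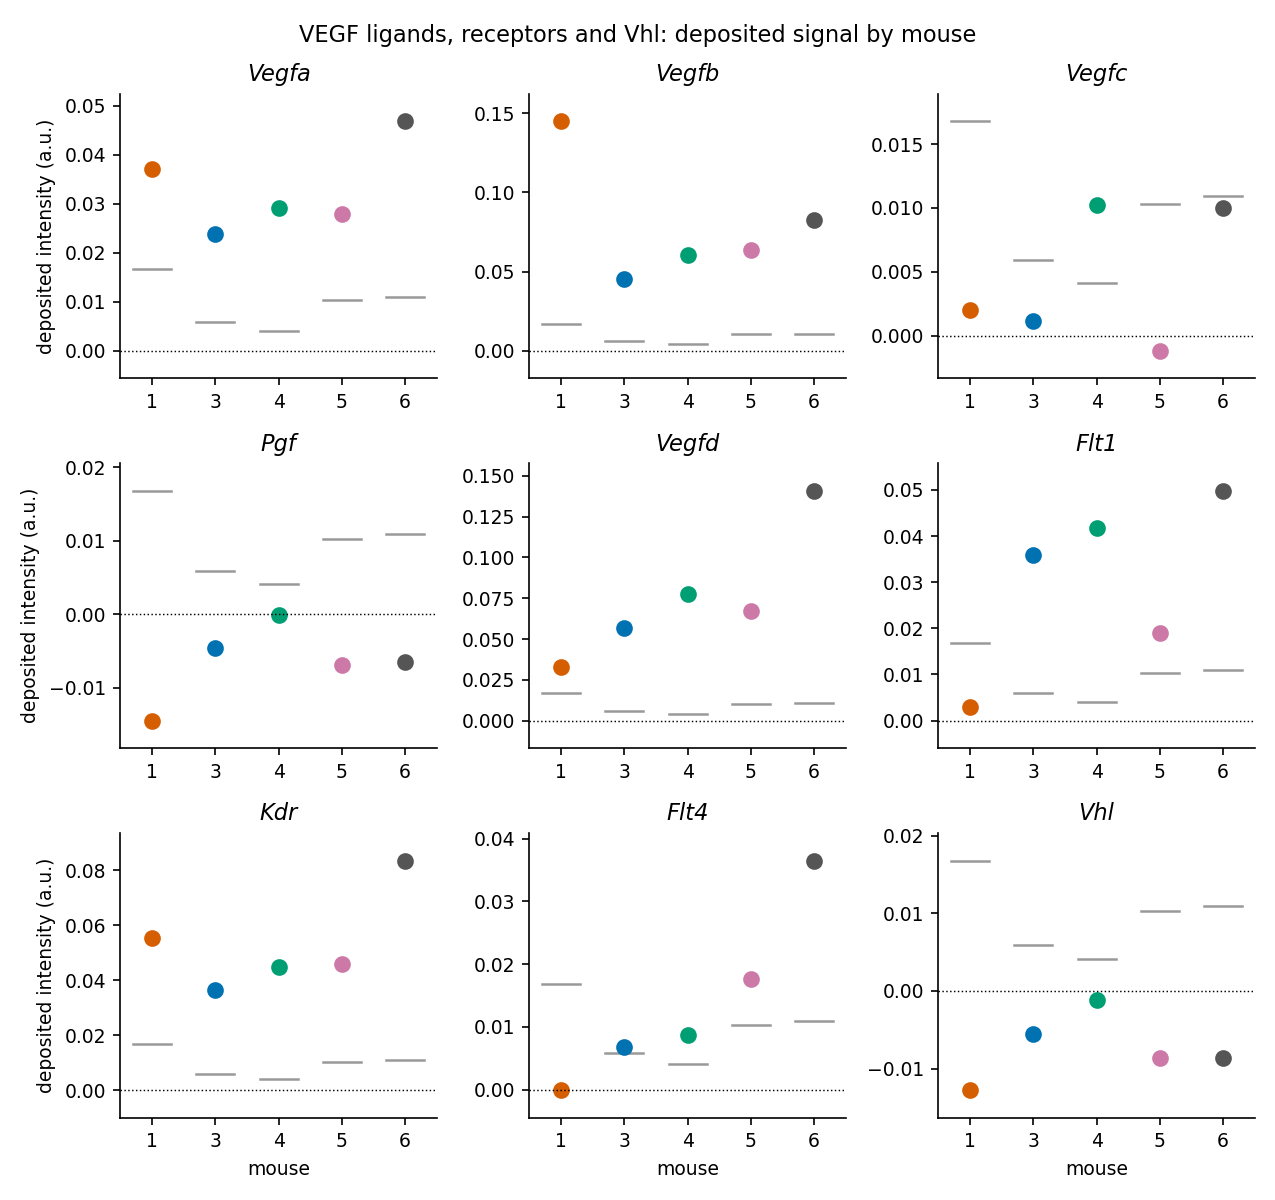
Deposited signal (arbitrary units, linear axis with its own range in each panel) of the 7 members and of Vegfd and Flt4 in each of the 5 mice. Points are single arrays, the dotted line is 0, and the grey bar is the size of the most negative value on that array; Vegfa, Vegfb and Kdr lie above the bar in all 5 mice, Flt1 in 4, Vegfc in 1, and Pgf and Vhl in none.

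The other 2 VEGF genes of the array were measured as well. Vegfd, the second ligand of FLT4, read 0.0327, 0.0570, 0.0776, 0.0673 and 0.1409 in mice 1, 3, 4, 5 and 6, above the stricter limit in all 5. Flt4, the lymphatic receptor and the only lymphatic endothelial marker on the array, read -0.0001, 0.0068, 0.0087, 0.0177 and 0.0365, and passed the stricter limit in the 4 mice other than mouse 1. Like Flt1, Flt4 and Vegfd were lowest in mouse 1, as were 17.7% of the 147 probes above 0 on all arrays. Fewer cells of a type and less RNA per cell cannot be told apart in RNA from whole muscle sections, and an offset in the background of that array was not tested.

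Quantile normalisation, which gives every array the same distribution of signals, was used to compare mice. On that scale Vegfa was at 0.0320 ± 0.00571, Kdr at 0.0511 ± 0.00835, Vegfb at 0.0813 ± 0.0370 and Flt1 at 0.0288 ± 0.0164 (SD, n = 5). Expressed as a percentage of the mean (coefficient of variation, CV), these SDs were 17.9%, 16.3%, 45.5% and 57.1%, around a median of 33.1% with quartiles of 19.3% and 44.3% over 146 tested probes. Vegfa and Kdr thus lay below the lower quartile of spread, and Vegfb and Flt1 above the upper one.

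With limma, the variance of each member was set against the trend of variance with signal over all tested probes. None of the 4 members was called, and of the 146 probes 0.00% were called wider and 0.00% narrower. At an unadjusted p under 0.05, 1 of the 4 members (Flt1) was wider, as were 4.79% of all tested probes, and none was narrower, against 5.48%. The SD of Flt1 was 3.34 times the trend (limma, unadjusted p = 0.016, adjusted p = 0.89), and 1.21 times without mouse 1 (limma, unadjusted p = 0.31, adjusted p = 0.91). As deposited, where 1.36% of probes and none of the members were called wider, its adjusted p was 0.073 (limma), within 0.073 to 0.91 over all alternatives. The log2 SD of Vegfb was 1.29 times the trend, that of Vegfa 0.631 times and that of Kdr 0.611 times, none past the threshold.

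The order of the mice was partly a matter of scaling. On the normalised scale Vegfa was at 0.0352, 0.0236, 0.0324, 0.0387 and 0.0298 in mice 1, 3, 4, 5 and 6, and Kdr at 0.0512, 0.0370, 0.0526, 0.0563 and 0.0582. Mouse 3 was lowest for Vegfa and for Kdr as deposited and with quantile or median scaling, but mouse 1 was lowest for both when arrays were scaled to their total. Vegfb was highest in mouse 1 and lowest in mouse 3 under all 4 scalings. Its log2 deviation in mouse 1 was 0.93, and its CV fell to 21.3% without mouse 1, or to 25.9% with total scaling.

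For Flt1, mouse 1 was lowest under all 4 scalings, at 0.00256 against 0.0253 to 0.0461 in the other mice after normalisation, a log2 deviation of -3.00. Without mouse 1 the CV of Flt1 was 24.4%. Vegfd was also lowest in mouse 1 under all 4 scalings, and its CV was 35.1% with and 15.1% without that mouse. The CV of Kdr was 6.10% without mouse 3, which was its lowest value. Mouse 3 was likewise lowest for Vegfa, whose CV without it was 11.3%.

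**Figure D2:**
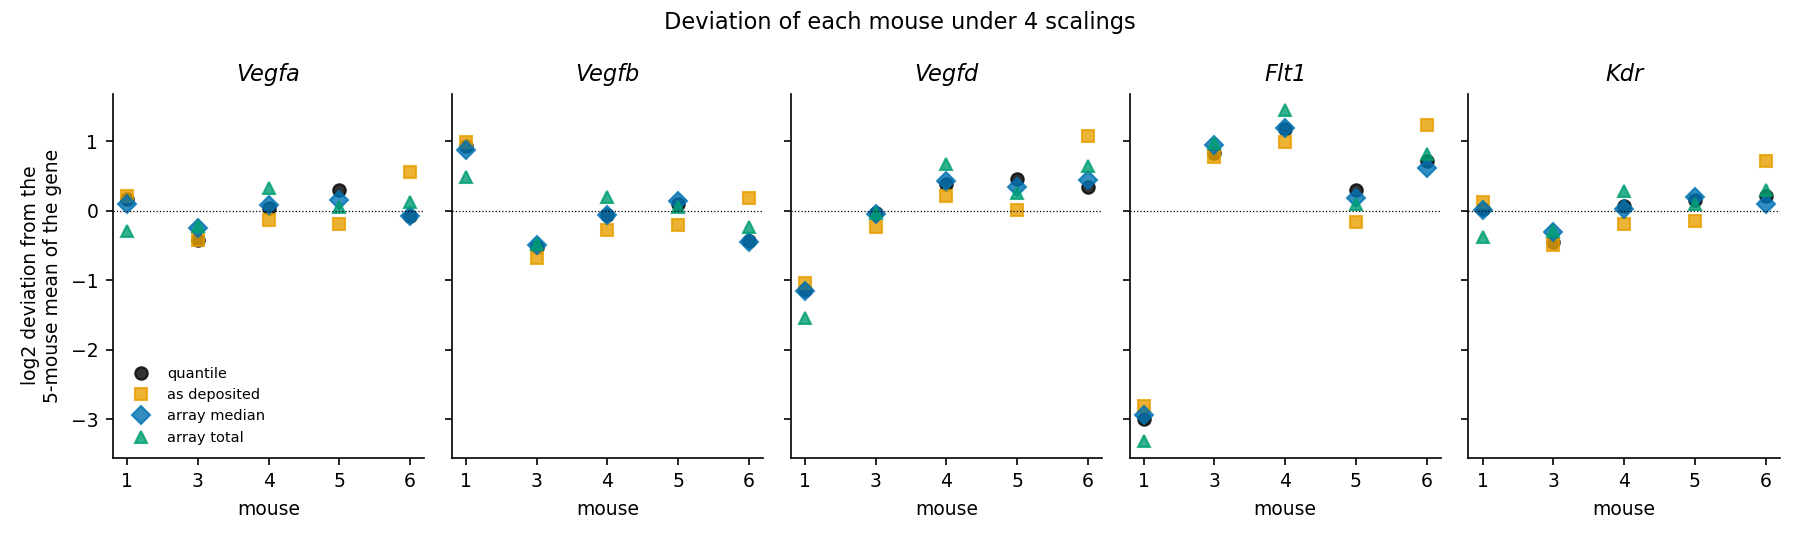
Log2 deviation of each mouse from the 5-mouse mean of the gene, for the 4 members above 0 on all arrays and Vegfd, with quantile normalisation, values as deposited, and scaling of arrays to their median or total. Each point is 1 array; Flt1 and Vegfd are lowest and Vegfb is highest in mouse 1 under all 4 scalings, while the sign of Vegfa and Kdr in mouse 1 turns with total scaling.

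**Figure D3:**
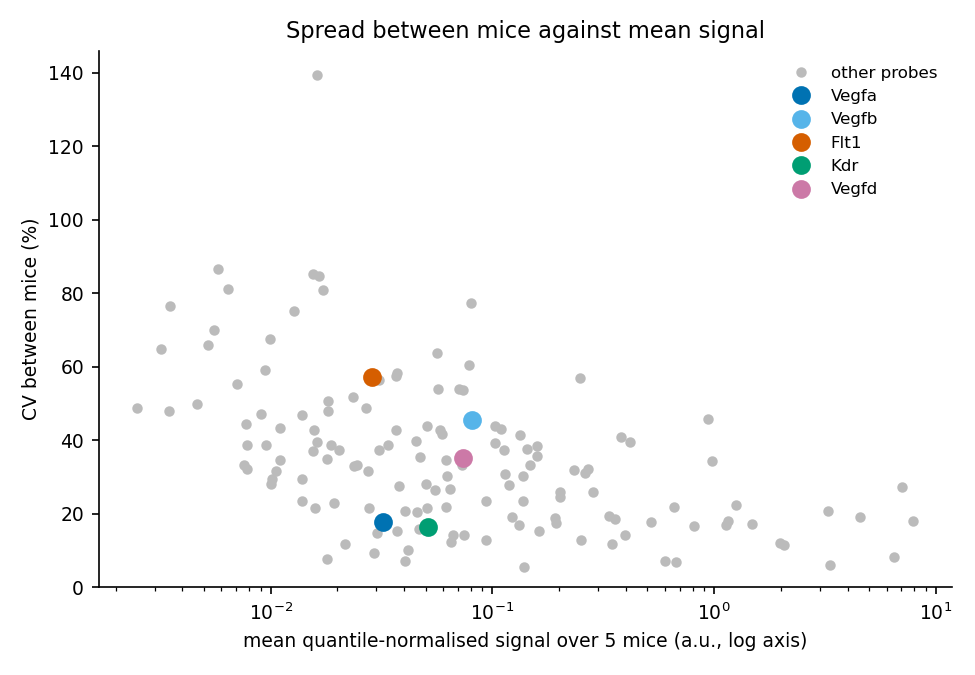
CV between the 5 mice (percent) against mean quantile-normalised signal (log axis) for 146 probes, with Vegfa, Vegfb, Flt1, Kdr and Vegfd coloured. Vegfa (17.9%) and Kdr (16.3%) lie low at their signal, and Flt1 (57.1%) lies high.

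Ratios of 2 probes on the same array are free of any factor common to that array. The size of such a ratio depends on both probes, so it is not a ratio of transcripts, and only its spread between mice is described. Deposited values were used. The SD of the log2 ratio over 5 arrays was 0.76 at the median of all 9453 pairs among 138 genes, with quartiles of 0.49 and 1.16. Without mouse 1 the median over the same pairs was 0.54, with quartiles of 0.36 and 0.86. SDs given below without mouse 1 are to be read against these.

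The Vegfa to Vegfb ratio was 0.256, 0.523, 0.484, 0.442 and 0.568 in mice 1, 3, 4, 5 and 6. Mouse 1 stood low and the others lay close together. The mean log2 ratio was -1.19 ± 0.46 (SD, n = 5), and 20.8% of all gene pairs had a smaller SD. The highest ratio was 2.22 times the lowest, or 1.29 times without mouse 1, where the log2 SD was 0.15. The low ratio of mouse 1 came with a Vegfb signal of 0.145, while its Vegfa signal was within the range of the others.

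The Kdr to Flt1 ratio was 18.5, 1.01, 1.07, 2.42 and 1.68 in mice 1, 3, 4, 5 and 6. The mean log2 ratio was 1.27 ± 1.72 (SD, n = 5), wider than in 91.8% of all gene pairs, and the highest ratio was 18.3 times the lowest. Without mouse 1 the log2 mean was 0.54 ± 0.59 (SD, n = 4) and the range 2.40 times. The value of mouse 1 divides by a Flt1 signal of 0.0030, on an array whose negative values reached -0.0168. When the lowest value of each array was subtracted first, the ratio of mouse 1 was 3.65 and those of the others 1.01 to 1.92, a range of 3.62 times. Mouse 1 remained the highest in both forms, but the size of its distance depends on where 0 is placed.

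The Vegfa to Kdr ratio was nearly the same in all mice: 0.668, 0.656, 0.652, 0.611 and 0.562 in mice 1, 3, 4, 5 and 6. The log2 SD was 0.10, smaller than in all but 0.243% of gene pairs, and the highest ratio was 1.19 times the lowest. Leaving out any 1 mouse gave a log2 SD of 0.06 to 0.12, subtracting the lowest value of each array gave 0.10, and quantile normalisation, which moves probes of different brightness by different factors, gave 0.17. The corresponding SDs were 0.52 for Vegfb to Kdr, 1.75 for Vegfa to Flt1 and 2.20 for Vegfb to Flt1. Without mouse 1 these were 0.22, 0.53 and 0.63.

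**Figure D4:**
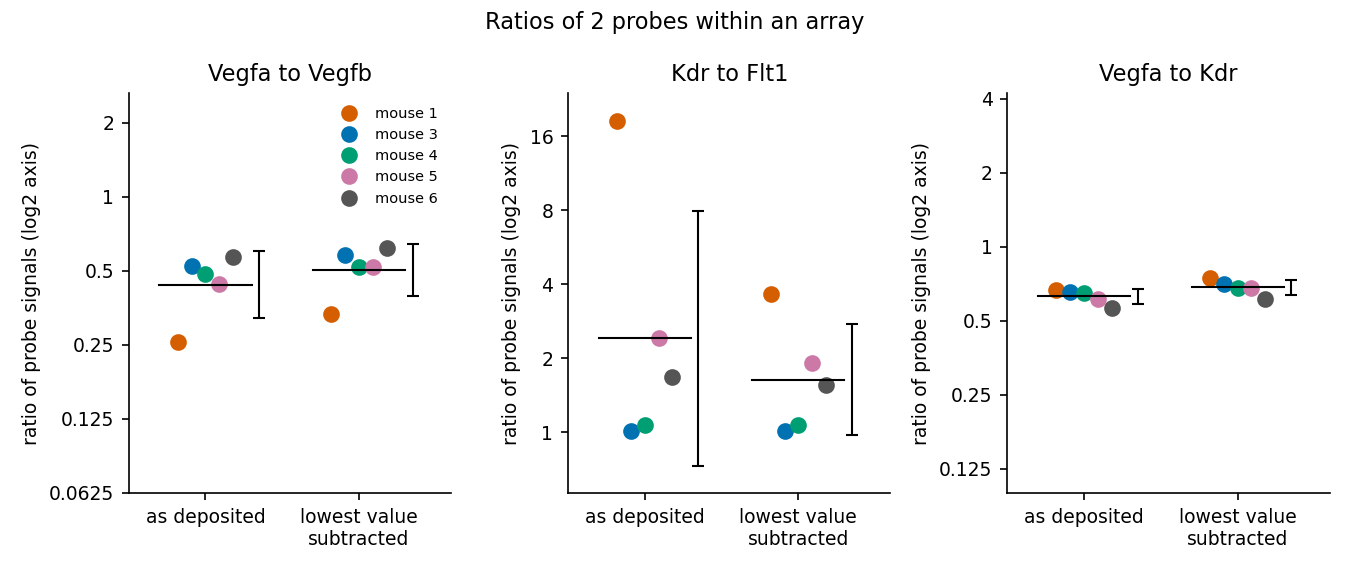
Ratios of probe signals within an array (log2 axis) for Vegfa to Vegfb, Kdr to Flt1 and Vegfa to Kdr, as deposited and after the lowest value of each array was subtracted. Points are single mice, horizontal lines the geometric mean and error bars 1 SD of the log2 ratio (n = 5); mouse 1 is lowest for Vegfa to Vegfb (0.256) and highest for Kdr to Flt1 (18.5), while the Vegfa to Kdr ratios lie between 0.562 and 0.668.

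The receptors were also set against 3 brighter endothelial genes, which were chosen with their values in view. Kdr to Cd34, a surface marker of endothelial and progenitor cells, was 0.342 to 0.411 with a log2 SD of 0.14. Kdr to Cdh5 (VE-cadherin, an endothelial junction protein) had a log2 SD of 0.26, or 0.07 without mouse 1, and Kdr to Pecam1, an endothelial adhesion molecule, 0.42. Flt1 to Cd34 was 0.0222 in mouse 1 and 0.169 to 0.343 in the others, with a log2 SD of 1.61, or 0.49 without mouse 1. Flt1 to Cdh5 had an SD of 1.47, or 0.57 without mouse 1, and Flt1 to Pecam1 1.59, or 0.92. With the lowest value of each array subtracted, the SDs of Flt1 to Cd34, Cdh5 and Pecam1 were 0.60, 0.51 and 0.72. Flt1 to Pecam1 was then lowest in mouse 5, at 0.138 against 0.148 in mouse 1. Cd34, Cdh5 and Pecam1 read 0.1351, 0.1043 and 0.1166 in mouse 1, inside the range of the other mice for all 3. After normalisation their log2 deviations in mouse 1 were -0.07, -0.41 and -0.53, against -3.00 for Flt1. On that scale Cdh5 was lowest in mouse 1, and Cd34 was lowest in mice 1 and 3 alike. Of the dim endothelial genes in mouse 1, the angiopoietin receptor Tek was at -1.38, its lowest, and Nos3 at 1.49, its highest. Their deposited values there, 0.0019 and 0.0087, both lay under the stricter limit of 0.0168, so no direction can be read from them.

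The genes most like each member were found as those with the smallest SD of the log2 ratio to it over 5 arrays, among 137 other genes above 0 on all arrays. For Vegfa they were Kdr (0.10), Cox4i1 (0.11) and Tfrc (0.13), against a median of 0.50 over all genes. For Kdr they were Vegfa (0.10), Cd34 (0.14) and Cox8a (0.15), against a median of 0.53. For Vegfb they were Ywhaz (0.12), Slc2a4 (0.15) and Gapdh (0.20), against 0.68. For Flt1 they were Csf2rb2 (0.36), Vcam1 (0.64) and Ang (0.78), against 1.81, and all of these rest on the value of mouse 1. Without mouse 1, an alternative added after seeing the data, Flt1 was nearest to Itgb5 (0.19), Ppara (0.22) and Pdgfb (0.23), against a median of 0.53, and Csf2rb2 ranked 35th. Kdr was then the 8th nearest gene to Vegfa (0.10, with Rb1 first at 0.05), and Vegfa the 3rd nearest to Kdr (with Cdh5 first at 0.07). Vegfb kept Slc2a4 (0.08) and Ywhaz (0.09) among its nearest 3. The Vegfa to Kdr ratio was thus as narrow without mouse 1, but other genes were then as near. The measure favours genes that vary little.

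Other genes of the pathway were taken from lists, which were drawn up with earlier results of these data known. Of their 25 probes on the array, 21 were above 0 on all arrays (65.9% of all probes were), and 0 of the 21 were called wider or narrower by limma. At an unadjusted p under 0.05, 3 of the 21 were wider (Thbs2, Efnb1 and Angpt2), against 4.79% of all tested probes, and 1 was narrower (Hmox1), against 5.48%. With values as deposited, the matrix protein Thbs2 was called wider (limma, adjusted p = 0.0050, range 0.0050 to 0.91 over all settings). Thbs2 read 0.0001 in mouse 5, under the stricter limit of 0.0103 on that array, against 0.0073 to 0.028 in the other mice. The call thus includes a value within the scatter around 0. In the oxygen-sensing list, 1 of 2 genes was above 0 in every mouse. Hif1a, the oxygen-regulated subunit of the hypoxia-inducible factor, read -0.0017, 0.0083, 0.0066, 0.0011 and 0.0136 in mice 1, 3, 4, 5 and 6. Its partner Arnt read 0.0126, 0.0291, 0.0235, 0.0169 and 0.0415, highest in mouse 6. The Arnt value of mouse 1 was the lowest but lay under the stricter limit of 0.0168 on that array, so no direction can be read from it. The log2 ratio of Vegfa to Arnt had an SD of 0.70, or 0.42 without mouse 1.

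Of 9 hypoxia-responsive genes on the array, 8 were above 0 in all mice, with a median CV of 18.4% against 33.1% over all tested probes. They were the glucose transporter Slc2a1 (23.1%), the glycolytic enzymes Hk1 (28.2%), Pgk1 (18.8%), Ldha (23.5%), Aldoa (8.37%) and Gapdh (18.1%), the haem-degrading enzyme Hmox1 (11.9%) and the transferrin receptor Tfrc (14.4%). The exception was the vasoconstrictor Edn1, above 0 in mouse 4 alone at 0.0034. CV also depends on signal, and some of the 8 were bright, with Gapdh at 7.91 and Aldoa at 6.49 on the normalised scale. Against the trend of variance with signal, the log2 SD was 1.39 times for Gapdh. For the other tested genes of this list it was 0.356 (Hmox1) to 0.700 (Pgk1) times. Angpt2, a TIE2 ligand that destabilises vessels, had a CV of 54.1%, or 33.5% without mouse 1. Its deposited value in mouse 1 was 0.0215 against 0.0503 to 0.1011 in the other mice. The remaining angiopoietin and Tie genes were dim, with Angpt1 at 0.00251 and the receptor Tek at 0.00645 on the normalised scale. The 5 anti-angiogenic genes, Thbs1, Thbs2, Timp2, Timp3 and Plg, were all above 0 in every mouse, as were 65.9% of all probes. Of these 5, 3 passed the stricter limit in every mouse, against 45.3% of all probes. Their median CV over all 5 was 39.5%. Both ephrins of the array were also above 0 in every mouse, with CVs of 77.3% for Efnb1 and 38.8% for Efnb2, ligands of Eph receptors on vessels. Of the VEGF receptor signalling list only Nos3, the endothelial nitric oxide synthase, was on the array, at a dim 0.00351 on the normalised scale.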

How the data were processed

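The authors deposited linear array intensities for 223 probes and 5 arrays. How they corrected the background and scaled the arrays is not given in the sources used here. Probes were named through the platform annotation (205 with 1 gene symbol, 18 unnamed), and 204 of the 205 were found in the GRCm38.p6 gene table. The 147 probes above 0 on all arrays were log2 transformed and quantile normalised. The unnamed probe that was brightest on every array has no variance after this step and was left out of tests. A robust variance trend was fitted with limma 3.58.1 (fitFDistRobustly) in R 4.3.3, and tail probabilities of the F distribution were adjusted by Benjamini-Hochberg over 146 probes at 0.05. This step was first checked on simulated data whose true variances lay exactly on the trend, unlike those of real probes. The check therefore does not show what can be detected here, and an absence of calls does not show that a spread follows the trend. Ratios were taken on deposited values. Precision is limited by the number of arrays. Each mouse has a single array, so an SD between mice also contains technical error, and p-values compare a probe with the other probes of these arrays. Named genes were the members, the 3 genes with the smallest SD of the log2 ratio to each, and genes of the pathway and marker lists. Members, lists and tests were chosen with earlier results of these data known. Alternatives were other scalings, a stricter limit for a signal, other filters, other placements of 0, a trend fitted without robustness, and leaving out each mouse.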

Additional observations from a re-analysis of the deposited data

Results flagged for a closer look

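Of 20 sets of 5 values checked for a mouse far from the others (deposited and normalised signals and ratios of the VEGF genes), 4 had a gap above Dixon's critical value of 0.71 of the range. Chance gives about 1 in 20 for independent sets, and these share genes and mice. The log2 normalised signal of Flt1 had a gap of 0.792 below the others, in mouse 1. The log2 ratios of Vegfa to Flt1 (gap 0.725) and of Vegfb to Flt1 (gap 0.733) were highest in mouse 1, and rest on the same Flt1 value. The log2 normalised signal of Kdr had a gap of 0.714, with mouse 3 lowest. The part of depth and background in these gaps was not tested.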

How the results depend on the processing

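None of the 4 tested members was called wider or narrower under any of the 11 alternatives of scaling, filter, trend or mice (limma). Over all probes 2 were called wider with values as deposited, against 0 with quantile normalisation. With the stricter limit for a signal, 3 of 7 members and 13 of the 25 pathway probes passed on every array, in place of 4 and 21. Leaving out each mouse gave mean log2 ratios of -1.28 to -0.99 for Vegfa to Vegfb and 0.54 to 1.58 for Kdr to Flt1, and 21 to 23 pathway probes above 0. Other placements of 0 moved the range of the Kdr to Flt1 ratio from 18.3 times to 5.80 times (median of values at or below 0 subtracted) or 3.62 times (lowest value subtracted). The CV moved by over 1.5 times in 3 settings for Vegfa, 2 each for Vegfb and Kdr, and 1 for Flt1. It was 27.7% as deposited and 10.8% with median scaling for Vegfa, and 34.3% as deposited for Kdr. No paired analysis was possible because there is 1 group. Signals near 0 limit Vegfc, Pgf, Vhl and, in mouse 1, Flt1.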
